A study of Mus musculus with 10 samples.

Results

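The genes by which the heart takes up and burns ketone bodies were described in the left ventricle, by RNA sequencing of 5 control and 5 HFD+mTAC mice. The 4 genes, Slc16a1, Bdh1, Oxct1 and Acat1, were chosen by symbol for their role in this pathway, out of 29564 genes listed in the deposited tables, and 4 of 4 were among the 13295 genes tested. All mice were wild-type C57BL6 males (C57BL/6J in the methods of the study) and are labelled as given vehicle. The labels describe the dosing (10 mL/kg once a day for 6 to 9 weeks) in the same words for every mouse, but these words name only HFD+mTAC mice, so that the dosing of the controls is less certain. HFD+mTAC mice underwent surgery at 11 weeks of age to tie a loop around the transverse aorta (mTAC), against which the left ventricle must then pump, and then ate a diet with 60% of kilocalories from fat (HFD). Control mice had no operation and ate chow with 10% of kilocalories from fat. Diet and operation were given together, so that their parts in a difference cannot be told apart. The labels give 1 library per mouse and no batch. Values of single mice are given below in the order of their names, from TT-583 to TT-587 for control and from TT-588 to TT-592 for HFD+mTAC.

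Ketone bodies, chiefly 3-hydroxybutyrate and acetoacetate, are made in the liver from fatty acids and are burned by the heart and other tissues. Monocarboxylate transporters carry them across the plasma membrane, together with lactate and pyruvate. In the mitochondrion 3-hydroxybutyrate is oxidized to acetoacetate, acetoacetate is joined to coenzyme A taken from succinyl-CoA, and acetoacetyl-CoA is split to acetyl-CoA, which enters the citrate cycle. Slc16a1 encodes monocarboxylate transporter 1. Bdh1 encodes the 3-hydroxybutyrate dehydrogenase of the mitochondrion, Oxct1 the succinyl-CoA transferase that activates acetoacetate, and Acat1 the acetyl-CoA acetyltransferase that splits acetoacetyl-CoA and also acts at the end of isoleucine breakdown.

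In GRCm38, by the GENCODE annotation (release M21), Slc16a1 lies on chromosome 3 from 104638668 to 104658462 on the plus strand with 1 transcript of 4426 bases. Bdh1 lies on chromosome 16 from 31422280 to 31458901 on the plus strand with 7 transcripts, of which 4 are protein-coding. The longest of the 7, of the nonsense-mediated decay type, has 3162 bases, and the longest protein-coding one has 3122 bases. Oxct1 lies on chromosome 15 from 4026383 to 4155344 on the plus strand with 5 transcripts, of which 2 are protein-coding and the longest has 3527 bases. Acat1 lies on chromosome 9 from 53580522 to 53610382 on the minus strand with 3 transcripts, of which 1 is protein-coding and has 3405 bases.

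Promoter windows of RefSeq (GRCm38.p6), which run from 250 bases before a start site to 50 bases after it, were found for 3 of the 4 genes, and Acat1 had no entry. Their upstream parts are shown because Bdh1 has 2 start sites among these windows. Its counts below are summed over all its transcripts, some of which start elsewhere in the GENCODE annotation. All lie on the plus strand and are written 5′ to 3′. Capitals mark matches, on either strand, to the motifs that the next paragraph spells out.
Slc16a1, chr3:104638414-104638663: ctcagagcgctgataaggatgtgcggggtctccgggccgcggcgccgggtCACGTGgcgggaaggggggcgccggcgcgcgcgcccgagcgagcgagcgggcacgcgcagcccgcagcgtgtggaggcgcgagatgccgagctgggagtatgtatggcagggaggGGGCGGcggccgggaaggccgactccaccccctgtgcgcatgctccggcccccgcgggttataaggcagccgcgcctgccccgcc
Bdh1, first start site, chr16:31422047-31422296: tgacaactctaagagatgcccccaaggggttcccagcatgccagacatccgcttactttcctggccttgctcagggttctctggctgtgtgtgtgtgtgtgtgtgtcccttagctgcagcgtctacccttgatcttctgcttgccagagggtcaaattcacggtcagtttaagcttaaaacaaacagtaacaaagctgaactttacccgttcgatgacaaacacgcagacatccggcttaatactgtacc
Bdh1, second start site, chr16:31428503-31428752: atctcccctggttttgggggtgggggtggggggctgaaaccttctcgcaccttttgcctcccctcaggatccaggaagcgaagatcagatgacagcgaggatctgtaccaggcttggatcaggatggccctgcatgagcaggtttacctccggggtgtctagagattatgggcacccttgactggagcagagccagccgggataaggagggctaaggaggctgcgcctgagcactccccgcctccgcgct
Oxct1, chr15:4026178-4026427: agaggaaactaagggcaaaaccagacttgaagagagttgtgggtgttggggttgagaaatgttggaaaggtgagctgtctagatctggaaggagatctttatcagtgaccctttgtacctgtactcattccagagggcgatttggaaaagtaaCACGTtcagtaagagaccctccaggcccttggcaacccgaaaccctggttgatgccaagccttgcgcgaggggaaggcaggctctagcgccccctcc

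Over the full windows of 300 bases, GC content was 73.7% with 42 CpG pairs at Slc16a1, 48.3% with 7 and 63.7% with 17 at the first and second start sites of Bdh1, and 55.3% with 11 at Oxct1, against medians of 52.7% and 7 over 32851 windows of all genes. The Slc16a1 window held 1 E-box (CACGTG) 200 bases before the start site, which 7.15% of all windows hold. It also held 1 GC box (GGGCGG), which 35.7% of all windows hold. The hypoxia response core (ACGTG, which the E-box contains) had 3 matches at Slc16a1, 2 of them within the E-box, and 1 match at Oxct1, 97 bases before the start site, and 19.6% of all windows hold it. The second Bdh1 window held 1 GC box after the start site, and the first held no match to any motif searched.

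The other motifs searched were not found in these 4 windows. They were the nuclear receptor hexamer (AGGTCA), which 16.3% of all windows hold, the estrogen-related receptor element (TCAAGGTCA), which contains that hexamer and which 0.423% hold, and the direct repeat of the hexamer with 1 base between (DR1), which 0.0396% hold. The others were the CCAAT box in 37.4% of windows, the TATA box (TATAAA) in 13.6% and the NRF1 palindrome in 0.971%.

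Libraries held 34.2 to 53.7 M estimated counts per mouse, of which 12.6 to 21.1 M fell on the genes tested. Neither the totals (exact permutation test, two-sided, p = 0.444) nor the share of counts on mitochondrially encoded genes (47.8% ± 3.57 in control and 50.1% ± 2.37 in HFD+mTAC mice, SD, n = 5 each, exact permutation test, two-sided, p = 0.246) differed between the groups beyond the spread of the mice. The cardiomyocyte markers that define the tissue were abundant as a sum, with 134640 to 156073 TPM in control and 126379 to 153090 TPM in HFD+mTAC mice (exact permutation test, two-sided, p = 0.175). Among them, Myl2, Tnnt2, Tnni3 and Actc1 each had at least 14912 TPM in every mouse. By contrast, Myh6 had only 146 to 255 TPM and Ryr2 31.9 to 58.6 TPM. TPM here were scaled over the genes tested and rest on the deposited effective lengths described below. The part of those lengths in the low values of Myh6 and Ryr2 was not tested. Of the 8 cardiomyocyte markers, 8 had lower fitted counts in HFD+mTAC mice and 0 passed the test. In whole tissue, fewer cells of a type and less RNA per cell cannot be told apart, and the part of these markers in the results below was not tested. Summed levels of 10 further marker lists (endothelium, fibroblast, smooth muscle and pericyte, macrophage, white and brown adipocyte, erythroid, atrial cardiomyocyte, mesothelium, lymphocyte) gave exact permutation p between 0.183 and 0.762, two-sided, and 0 of their tested markers passed the test. Not all markers were tested, with 0 of 5 for white adipocyte, 1 of 3 for mesothelium and 3 of 5 for lymphocyte. For brown adipocyte and for atrial cardiomyocyte, 2 of 4 were tested. The white adipocyte marker Adipoq reached at most 0.647 TPM and Ucp1, the defining gene of brown fat, was listed at 0 in every mouse, whereas Cidea and Ppargc1b of the brown adipocyte list reached 14.6 to 31.7 and 3.17 to 8.74 TPM (log2 fold changes 0.39 and -0.076, adjusted p = 0.284 and 0.967 from edgeR) and Cidec of the white adipocyte list up to 3.14 TPM.

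None of the 4 genes passed the test between the groups at an adjusted p under 0.05, whereas 8 of 13295 genes did (0.0602%). Rounded estimated counts were normalized with TMM and compared by the quasi-likelihood test of edgeR, and p-values were adjusted by the Benjamini-Hochberg method over all genes tested. By unadjusted p under 0.05, 2 of the 4, Bdh1 and Oxct1, were lower, against 1099 genes in either direction (8.27%). Acat1 alone of the 4 had a log2 fold change above zero. With DESeq2, 120 genes passed (0.903%) and again none of the 4.

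**Figure D1:**
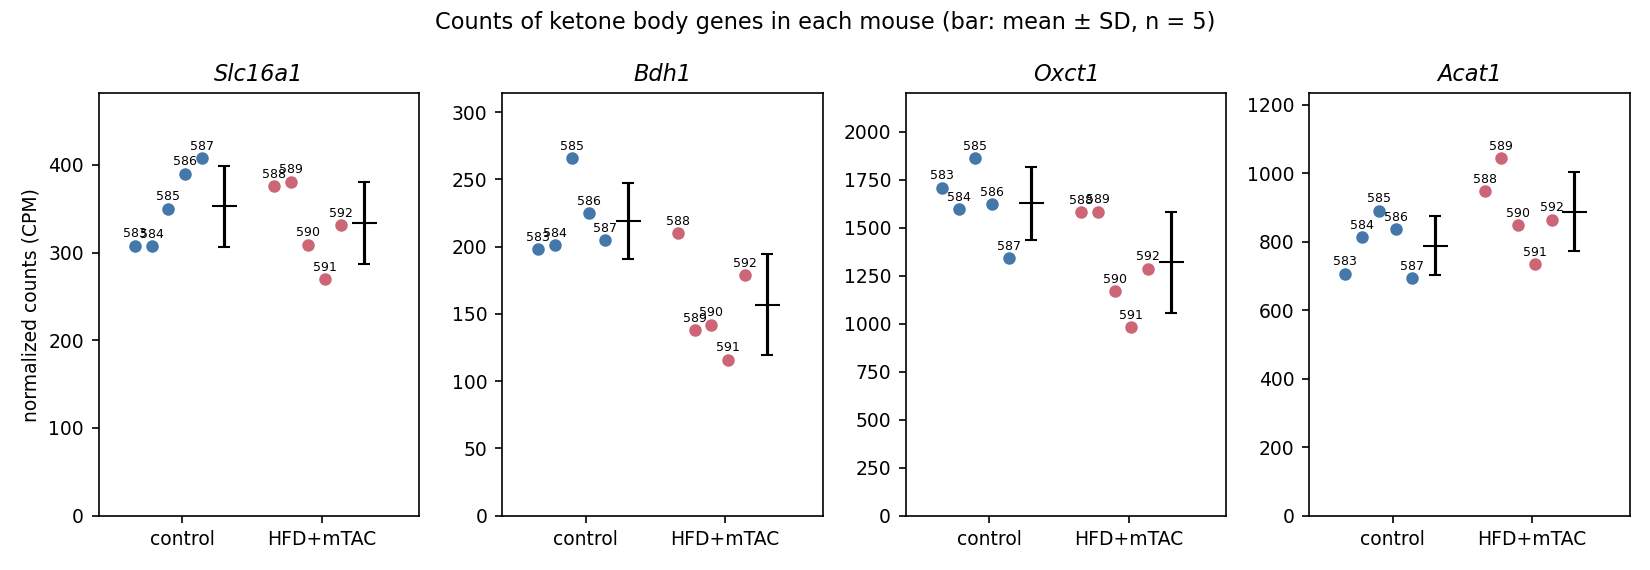
Normalized counts (CPM, vertical axis from 0) of the 4 genes in each mouse, with the digits of its name above each point and the mean ± SD (n = 5) beside each group. The groups overlap in all 4 panels, and of the 5 HFD+mTAC mice 4 lie below all control mice for Bdh1 and 3 for Oxct1.

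Slc16a1, the carrier at the cell membrane, had 308, 307, 350, 390 and 408 CPM (counts scaled to a common library size after TMM normalization) in the control group. In the HFD+mTAC group it had 376, 381, 309, 270 and 331 CPM. Only mouse TT-591 lay below all control mice, and the other 4 were within their range. The means were 353 ± 46.2 and 334 ± 46.5 CPM (SD, n = 5 per group), and the log2 fold change was -0.08 (95% interval -0.33 to 0.17, adjusted p = 0.918 from edgeR). With the length of the transcripts as an offset, the log2 fold change was -0.25 (unadjusted p = 0.0447, adjusted p = 0.66 from edgeR).

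Bdh1, the first step of 3-hydroxybutyrate oxidation, had 198, 201, 266, 225 and 205 CPM in the control group. In the HFD+mTAC group it had 210, 138, 142, 116 and 179 CPM. Of the 5 HFD+mTAC mice, 4 lay below all control mice and mouse TT-588 was within their range, so that the groups overlapped. The means were 219 ± 28.5 and 157 ± 37.2 CPM (SD, n = 5 per group), and the log2 fold change was -0.48 (standard error 0.15, 95% interval -0.81 to -0.16, unadjusted p = 0.00723, adjusted p = 0.369 from edgeR). Without mouse TT-588, the log2 fold change was -0.61 (unadjusted p = 0.00071, adjusted p = 0.275 from edgeR), and without control mouse TT-585 it was -0.40 (unadjusted p = 0.0228 from edgeR). With the length offset it was -0.63 (unadjusted p = 0.0676 from edgeR) and on log2(TPM + 1) -0.64 (unadjusted p = 0.0726 from limma), so that Bdh1 no longer had an unadjusted p under 0.05 once length entered the fit.

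Oxct1, the enzyme that commits acetoacetate to oxidation, had 1709, 1598, 1865, 1625 and 1342 CPM in the control group. In the HFD+mTAC group it had 1583, 1584, 1170, 982 and 1287 CPM. Mice TT-590, TT-591 and TT-592 lay below all control mice, and mice TT-588 and TT-589 were within their range. The means were 1628 ± 191 and 1321 ± 263 CPM (SD, n = 5 per group), and the log2 fold change was -0.30 (standard error 0.14, 95% interval -0.60 to -0.0032, unadjusted p = 0.0479, adjusted p = 0.6 from edgeR). This difference was smaller once transcript length was taken into account, with a log2 fold change of -0.093 with the length offset (adjusted p = 0.941 from edgeR) and -0.12 on log2(TPM + 1) (adjusted p = 0.953 from limma).

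Acat1, the last step, had 707, 814, 891, 838 and 694 CPM in the control group. In the HFD+mTAC group it had 948, 1045, 848, 735 and 865 CPM. Mice TT-588 and TT-589 lay above all control mice, and the other 3 were within their range. The means were 789 ± 85.1 and 888 ± 116 CPM (SD, n = 5 per group), and the log2 fold change was 0.17 (standard error 0.11, 95% interval -0.063 to 0.41, adjusted p = 0.739 from edgeR).

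Within a mouse, the ratio of the counts of 2 genes does not depend on how libraries are scaled. The ratio of Oxct1 to Acat1 was 2.42, 1.96, 2.09, 1.94 and 1.93 in the control mice and 1.67, 1.52, 1.38, 1.34 and 1.49 in the HFD+mTAC mice, so that the groups did not overlap. The ratio of Bdh1 to Acat1 was 0.28, 0.247, 0.299, 0.269 and 0.295 in the controls and 0.221, 0.132, 0.167, 0.158 and 0.207 in HFD+mTAC mice, again without overlap. Both ratios have Acat1 as their base and were looked at after the values of each gene were seen, so no test is given. Of the other 13294 genes, 395 had a ratio to Acat1 that did not overlap between the groups (2.97%), and 1066 had such a ratio to Oxct1 (8.02%). The log2 ratio of Oxct1 to Acat1 was lower by 0.48 in the counts, with means of 1.04 ± 0.14 and 0.56 ± 0.13 (SD, n = 5 each). On the TPM scale the difference was -0.38 and the groups overlapped, as they did for Bdh1 to Acat1. The ratio of Bdh1 to Oxct1, which follow each other in the pathway, overlapped between the groups (0.116 to 0.152 in control and 0.0871 to 0.139 in HFD+mTAC mice). The ratios of Bdh1, Oxct1 and Acat1 to Slc16a1 overlapped too. Thus of the 6 pairs, only the ratios of Oxct1 and of Bdh1 to Acat1 did not overlap in the counts.

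**Figure D2:**
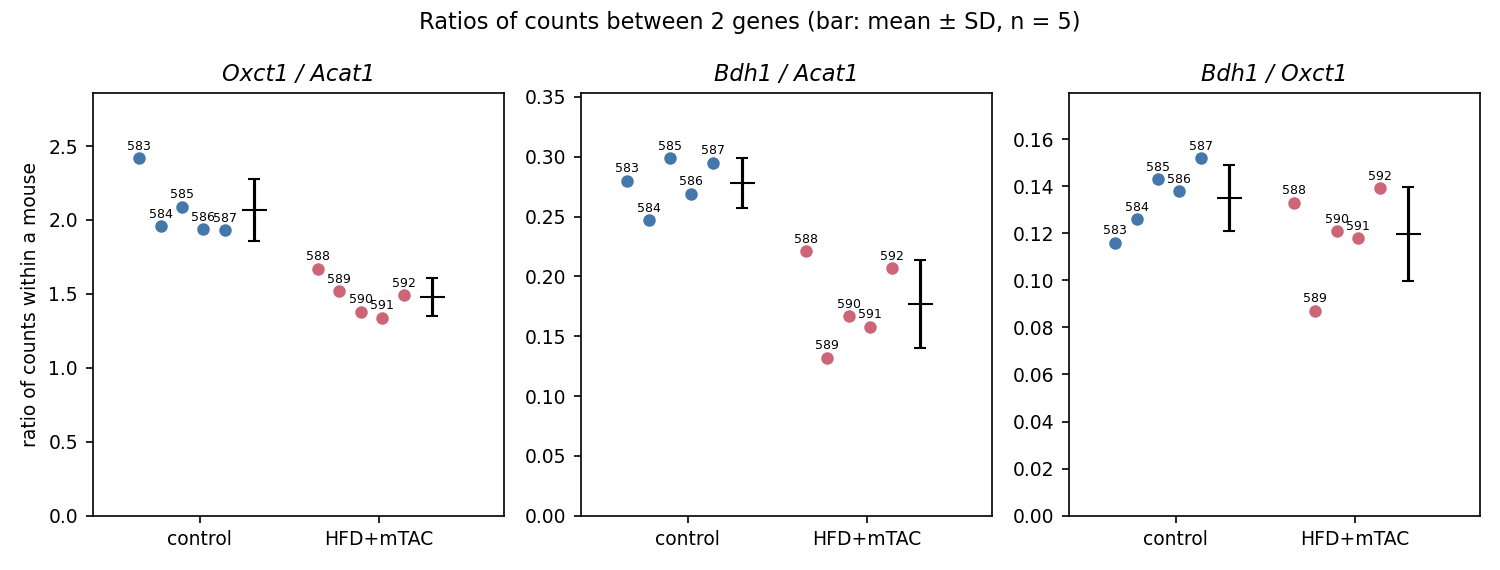
Ratio of the counts of 2 genes within each mouse (vertical axis from 0), with the mean ± SD (n = 5) beside each group. The HFD+mTAC mice lie below all control mice for Oxct1 to Acat1 (1.34 to 1.67 against 1.93 to 2.42) and for Bdh1 to Acat1, and overlap with them for Bdh1 to Oxct1. The ratios to Slc16a1, which are not drawn, overlap as well.

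Levels of different genes can be set side by side only per length. On the TPM scale, renormalized over the genes tested, Oxct1 and Acat1 were the most abundant of the 4, with means over the 10 mice of 692 and 671 TPM (ranks 237 and 248 of 13295 genes). Bdh1 followed with 63.5 TPM (rank 1653) and Slc16a1 with 31.6 TPM (rank 2818). Over the 10 mice Oxct1 and Acat1 were not separated, with Oxct1 above Acat1 in 5 of 10 mice and a mean log2 difference in level of 0.0085 ± 0.35 (SD over 10 mice). By group, that mean was 0.20 ± 0.14 in control and -0.18 ± 0.41 in HFD+mTAC mice (SD), and the groups overlapped. Oxct1 was above Bdh1 in 10 of 10 mice by 3.51 ± 0.49 on the log2 scale, and Bdh1 was above Slc16a1 in 10 of 10 mice by 0.89 ± 0.50. On CPM per kilobase of the longest annotated coding transcript, a scale added after the data were seen, the last pair changed order. Its mean log2 difference was -0.41 ± 0.32, with Bdh1 above Slc16a1 in 1 of 10 mice. For Bdh1 that transcript, of 3162 bases, is of the nonsense-mediated decay type with 111 coding bases. The protein-coding transcripts of Bdh1 have 3122, 1711, 1496 and 807 bases, and the order of the pair with these lengths was not tested. On CPM per kilobase Oxct1 was above Acat1 in 10 of 10 mice, by 0.75 ± 0.28. Both scales placed Oxct1 and Acat1 above Bdh1 and Slc16a1 in every mouse.

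**Figure D3:**
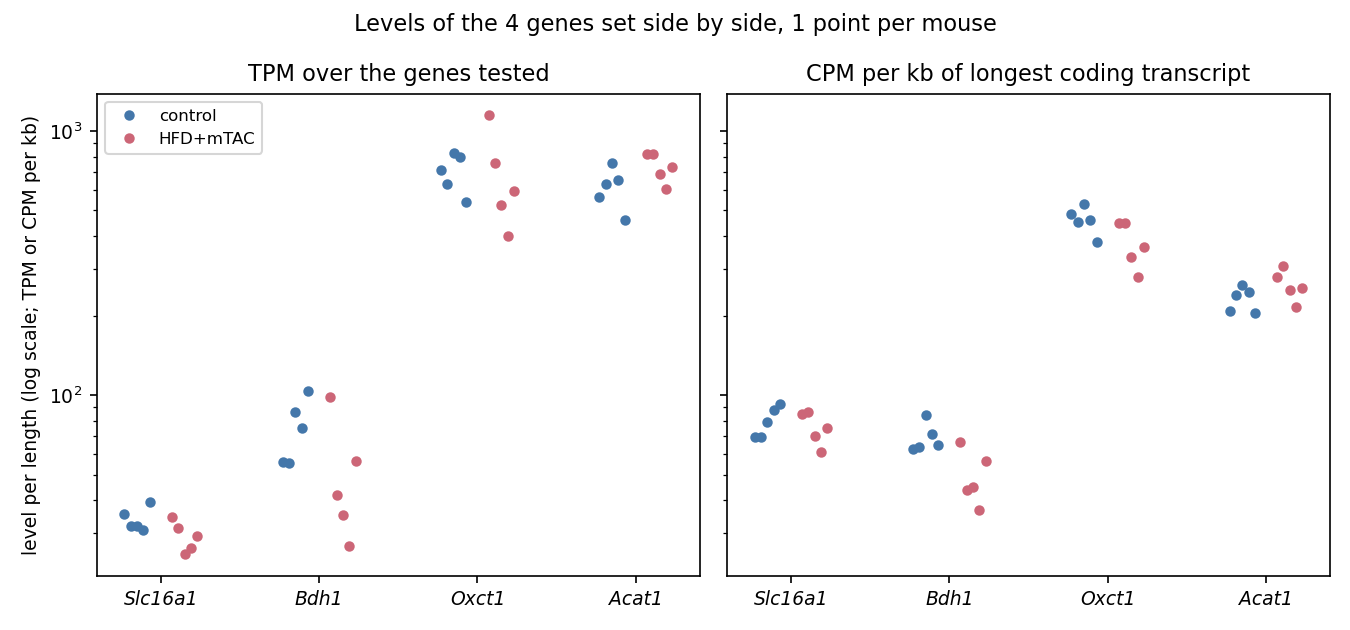
Level of the 4 genes in each mouse (1 point per mouse, log axis), as TPM over the genes tested on the left and as CPM per kilobase of the longest annotated coding transcript on the right. Oxct1 and Acat1 lie above Bdh1 and Slc16a1 on both scales, whereas the order of Bdh1 and Slc16a1 differs between the scales.

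The 2 scales use different lengths. TPM uses the deposited length, which varies between mice and is the average effective length of the transcripts to which reads were assigned, as corrected for sequence, GC and positional bias in the quantification. For Slc16a1, with 1 annotated transcript of 4426 bases, it was 9053 to 12709 bases in control and 10956 to 13034 bases in HFD+mTAC mice, above the annotated length in 10 of 10 mice. For Bdh1 it was 1967 to 3678 bases in control and 2394 to 4620 bases in HFD+mTAC mice, above the longest transcript in 7 of 10 mice, and its coefficient of variation over the 10 mice (22.7%) was larger than that of 74.6% of genes. The mean length lay above the longest transcript in the GENCODE release used here for 47.7% of genes, and the reason was not tested. The methods of the study name a different GENCODE release for the quantification. No length of the 4 genes differed between the groups by limma on log2 length, with adjusted p between 0.733 and 0.871. By unadjusted p, 0 of the 4 passed, against 472 of 13295 genes (3.55%), and by adjusted p no gene did (0%).

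**Figure D4:**
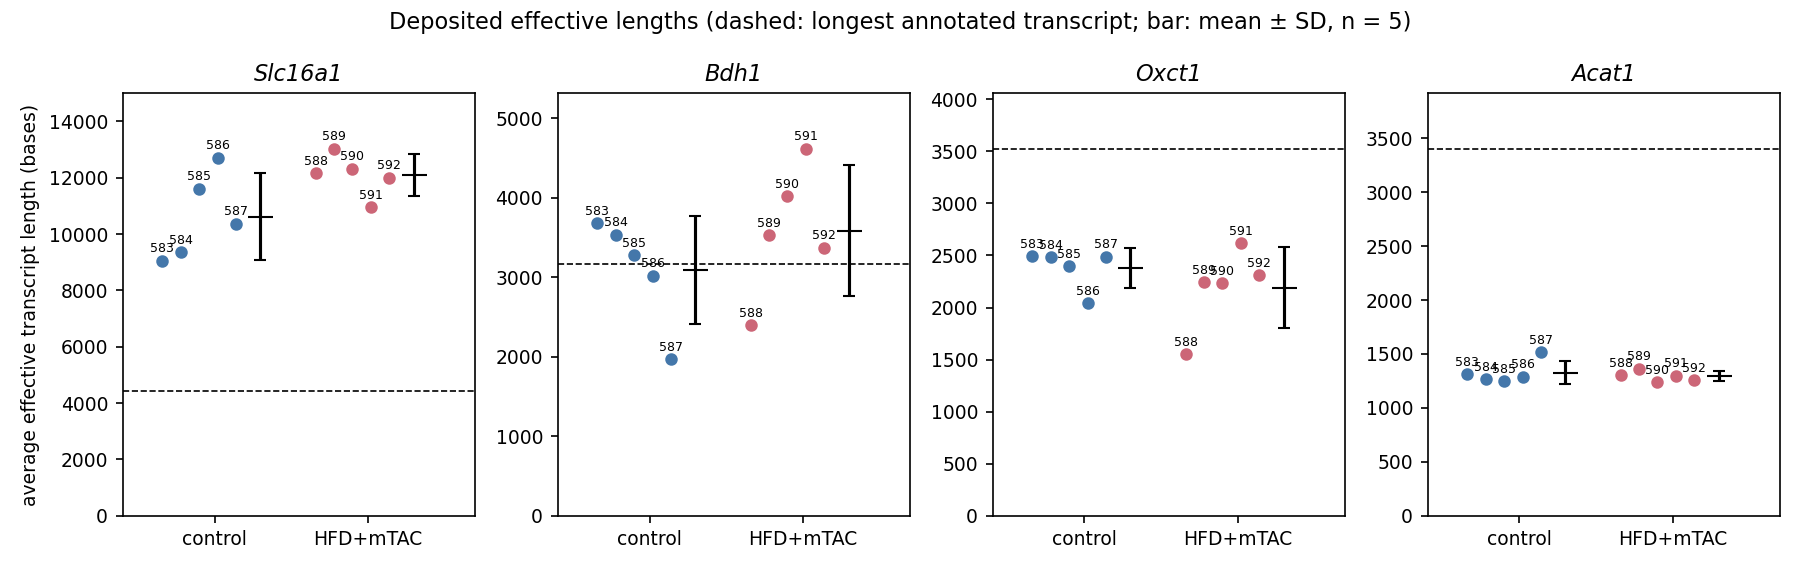
Deposited average effective transcript length (bases, vertical axis from 0) of the 4 genes in each mouse, with the mean ± SD (n = 5) beside each group and the longest annotated transcript as a dashed line. Slc16a1 lies above its line in 10 of 10 mice and Bdh1 in 7, whereas Oxct1 and Acat1 lie below theirs in every mouse.

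From mouse to mouse, Bdh1 varied most closely with Slc16a1 or Oxct1, depending on the scale. On log2(TPM + 1), 1 of the 6 pairs passed, Bdh1 and Slc16a1, with Pearson r = 0.80 (permutation p = 0.00552, adjusted over the 6 pairs 0.0331) and Spearman rho = 0.67 (permutation p = 0.0395, adjusted 0.207). Without the 2 mice farthest from the median of Bdh1, r was 0.64. On log2 CPM, Bdh1 and Oxct1 had r = 0.79 (permutation p = 0.00662, adjusted 0.0397) and rho = 0.67 (permutation p = 0.0379, adjusted 0.227), and r was 0.86 without the 2 farthest mice, while Bdh1 and Slc16a1 had r = 0.51 (permutation p = 0.136, adjusted 0.307). The correlation of Bdh1 with Oxct1 was 0.65 on log2(TPM + 1) (permutation p = 0.0389, adjusted 0.117). Over all 10 mice these correlations include the difference between the groups. As deviations from the group means, as a description, r on log2(TPM + 1) was 0.71 for Bdh1 and Slc16a1, 0.69 for Bdh1 and Oxct1 and 0.76 for Oxct1 and Acat1. On log2 CPM, such deviations gave r = 0.65 for Bdh1 and Oxct1 and 0.51 for Bdh1 and Slc16a1. Oxct1 and Acat1 had r = 0.85 there, where r over the mice without centring was 0.33. Each group alone, with 5 mice, was too small for a correlation.

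Among 10096 genes with a mean of at least 5 CPM, the genes most like each of the 4 in log2 CPM over the 10 mice were N28178, Pcx and Hdac9 for Bdh1 (r = 0.98, 0.95 and 0.91), Acsl6, Rragd and Dyrk1a for Oxct1 (r = 0.98, 0.96 and 0.95), Add1, Vipas39 and Bcl2l2 for Acat1 (r = 0.99, 0.98 and 0.97), and Dsc2, Corin and Arhgap20 for Slc16a1 (r = 0.97, 0.95 and 0.95). Pcx encodes pyruvate carboxylase and Acsl6 a long-chain acyl-CoA synthetase. None of the other 3 genes of the pathway was among them for any of the 4. As deviations from the group means, N28178, Hdac9 and Tbx20 were most like Bdh1 (r = 0.99, 0.96 and 0.96), Dapk1, Slain2 and Ubxn2a most like Oxct1 (r = 0.99, 0.98 and 0.98), Add1, Lrig1 and Vipas39 most like Acat1 (r = 0.99, 0.97 and 0.97), and Dsc2, Tob1 and Pirt most like Slc16a1 (r = 0.97, 0.96 and 0.95). These are descriptions over 10 mice, and the genes compared were measured in the same libraries.

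Of the genes reported here from 6 lists of related roles, 38 in all, 30 were tested, 0 rose and 1 fell, beside 0.0602% of all genes. The gene that fell, Bckdhb, codes for part of the enzyme that decarboxylates branched-chain keto acids, in the isoleucine breakdown that ends with Acat1. It had 88.4, 95.1, 84.3, 90.2 and 101 CPM in control mice and 59.1, 73.5, 59.2, 63.5 and 59.9 CPM in HFD+mTAC mice. The groups did not overlap, which 261 of 13295 genes showed in either direction (1.96%). The log2 fold change was -0.54 (standard error 0.084, adjusted p = 0.0455 from edgeR), and it no longer passed in 9 of the 10 fits without 1 mouse (adjusted p up to 0.155 from edgeR). Of the 7 genes of this list, 7 had lower fitted counts (median log2 fold change -0.24, against 0.001 over all genes tested), and 4 of them had an unadjusted p under 0.05. Of all 13295 genes tested, 6600 had lower fitted counts, 495 of them with an unadjusted p under 0.05. Hsd17b10, named after its values were seen, did not overlap between the groups either (138 to 164 against 166 to 201 CPM, adjusted p = 0.443 from edgeR).

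Of the other transport genes, 4 of 6 were tested and 0 passed. Slc16a6, a monocarboxylate transporter, had a log2 fold change of -0.31 (adjusted p = 0.725 from edgeR), and Bsg, whose product basigin chaperones monocarboxylate transporter 1 to the membrane, one of 0.0074 (adjusted p = 0.993 from edgeR). Of 10 other enzymes acting on ketone bodies or acetoacetyl-CoA, 7 were tested and 0 passed. Among them, Acaa2, a mitochondrial thiolase, had a log2 fold change of 0.31 (adjusted p = 0.461 from edgeR), and Aacs, the cytosolic acetoacetyl-CoA synthetase, one of -0.19 (adjusted p = 0.879 from edgeR). Hadhb, a thiolase subunit of the trifunctional protein named after its values were seen, had one of 0.32 (adjusted p = 0.504 from edgeR).

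Of 6 receptors and regulators, 3 were tested and 0 passed. Ppara, a nuclear receptor of fatty acids, had a log2 fold change of 0.31 (95% interval -0.65 to 1.27, adjusted p = 0.916 from edgeR), with 2.53 to 17.3 CPM in HFD+mTAC mice. Ppargc1a, a coactivator of mitochondrial genes, had one of -0.13 (adjusted p = 0.863 from edgeR). The 3-hydroxybutyrate receptor Hcar2, named outside the rule for genes of the lists, had at most 8 counts in a mouse and was not tested. Of the 4 genes around succinyl-CoA and citrate 0 passed, with Suclg2 and Sucla2, subunits of succinyl-CoA ligase, at 0.10 and -0.082 (adjusted p = 0.923 and 0.903 from edgeR).

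Of the 5 lactate and pyruvate genes, which share the carrier Slc16a1 or its substrates, 5 had lower fitted counts (median log2 fold change -0.25), against 6600 of all 13295 genes, and 0 passed. Among them, Hcar1 was near the floor, with means of 0.451 CPM in control and 0.351 CPM in HFD+mTAC mice. The 95% interval of its log2 fold change ran from -1.83 to 1.34. Ldhb, the lactate dehydrogenase subunit of the heart, had 1553 to 1792 CPM in control and 1222 to 1540 CPM in HFD+mTAC mice, without overlap, and a log2 fold change of -0.26 (adjusted p = 0.411 from edgeR). Mpc1, a subunit of the mitochondrial pyruvate carrier named after its values were seen, did not overlap either (853 to 1019 against 700 to 850 CPM, adjusted p = 0.429 from edgeR), and 1.96% of all genes tested did not overlap. Ldha, also named after its values were seen, had a log2 fold change of -1.15 in the counts (adjusted p = 0.44 from edgeR) and of 0.25 on log2(TPM + 1) (limma), so that its direction turned with the scale.

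**Figure D5:**
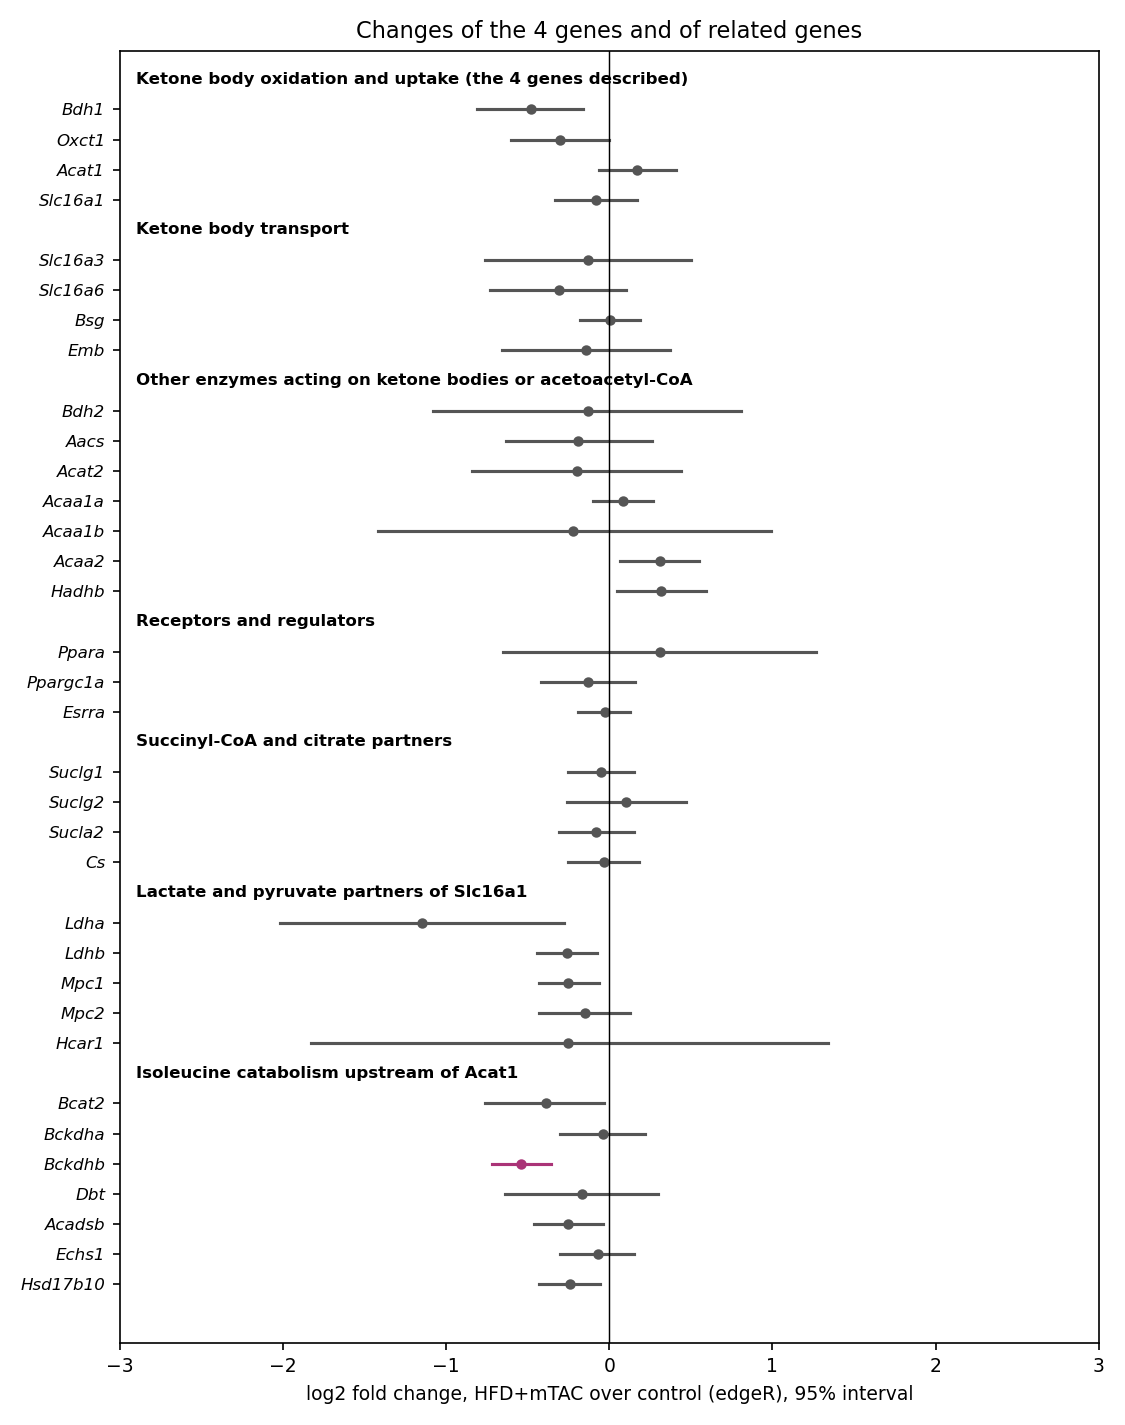
Log2 fold change of HFD+mTAC over control mice (horizontal axis) with its 95% interval for the 4 genes and the tested genes of the 6 lists, in which color marks an adjusted p under 0.05 from edgeR. Bckdhb stands at -0.54, whereas the intervals of Bdh1 and Oxct1 lie below zero without an adjusted p under 0.05.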

How the data were processed

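Polyadenylated RNA of the left ventricle was sequenced for 5 control and 5 HFD+mTAC mice, grouped by the sample labels. According to the methods of the study, the authors trimmed reads with fastp, quantified them with salmon (with sequence, GC and positional bias correction) on GENCODE transcripts of GRCm38 and summed them to genes with tximport. The submitters' processing notes list Salmon 1.6.0 and a human build, which is at odds with the mouse samples. The labels give single-end reads where the methods give paired-end reads, and which holds for these libraries, and how it bears on the effective lengths and TPM, was not tested. The authors deposited estimated counts per gene, not normalized, and 20.1% of these values have decimals. TPM values were deposited too, adjusted for length and scaled within every mouse (the genes listed sum to 94.8 to 96.6% of the nominal total), and the average effective lengths in bases, the other deposited values. Symbols were looked up in the GENCODE annotation used here, 27862 of 29564 directly and 868 by an older symbol, and 834 were not found.

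The 4 genes, the lists and the motifs were chosen with earlier results of these data known. Protein-coding genes outside the mitochondrial genome that had at least 1 count in 9 of 10 mice were tested (13295 genes). Rounded counts were fitted in R 4.3.3 with edgeR 4.0.16 (TMM, quasi-likelihood test, two-sided, no covariate, adjusted p under 0.05). Effective lengths were fitted with limma 3.58.1. Correlations used 100000 permutations, and single values an exact permutation test over all 252 arrangements into groups of 5 (smallest possible p 0.00794). No test was made between levels of different genes. Apart from Hcar2, which was not tested, the genes of the lists named were those with an adjusted p under 0.05 and the smallest p in each direction, and any gene chosen after its values were seen is marked so. Some genes that this rule selects are not reported here. The genes most like each of the 4 were the 3 with the highest r of log2 CPM with a prior count of 2. Proteins of related genes were not compared here.

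Alternatives were upper-quartile scaling, scaling by DESeq2 size factors, the DESeq2 1.42.0 test, limma on log2(TPM + 1) and log2(TPM + 0.1), no filter or at least 10 counts in 5 mice, all biotypes, transcript length as an offset, edgeR's robust test and the omission of each mouse. CPM per kilobase and the ratios within a mouse were added after the data were seen. The fits were tested on simulated data drawn without differences in transcript length between mice, and the outcome is not reported here. Libraries of one group differed by a chi-square per degree of freedom of at least 12.9 (repeats of one library give values near 1), so that each was counted as 1 sample. Nothing in the labels says that the mice came from separate litters or cages, and p-values measure the spread between these mice.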

Additional observations from a re-analysis of the deposited data

Results flagged for a closer look

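Among 24 groups of 5 values checked for a mouse that stands apart from the other 4 (the CPM, TPM and effective length of each of the 4 genes), 2 had one, and chance gives about 1 in 20 groups. Both are effective lengths in control mice. The effective length of Oxct1 was 2042.1 bases in control mouse TT-586, below the 2396 to 2492 bases of the other control mice. That of Acat1 was 1513.9 bases in control mouse TT-587, above the 1248 to 1311 bases of the others. The CPM of both genes in these mice did not stand apart.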

How the results depend on the processing

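None of the 4 genes passed at an adjusted p under 0.05 in any of the 20 alternative fits, and none changed direction. The number with an unadjusted p under 0.05 was 2, became 0 on log2(TPM + 1) and log2(TPM + 0.1) and 1 without a filter, with at least 10 counts in 5 mice, with all biotypes and with the length offset, and was 1 to 2 without 1 mouse. The 1 gene was Bdh1 in these fits except with the length offset, where it was Slc16a1. Without 1 mouse, Bdh1 was among them in 10 of 10 fits and Oxct1 in 3, and without HFD+mTAC mouse TT-591 the other gene was Acat1, which was higher (unadjusted p = 0.044, edgeR). Without a mouse, the log2 fold change of Bdh1 ran from -0.61 to -0.39 and its unadjusted p stayed at or below 0.0228 (edgeR), and that of Oxct1 ran from -0.38 to -0.21 with an unadjusted p up to 0.121 (edgeR, without control mouse TT-585). The number of all genes passing was 120 by DESeq2, 1 on both TPM scales and with the length offset, and 1 to 9 without 1 mouse, against 8. Bckdhb did not pass on the TPM scales or with the length offset (adjusted p = 0.503, 0.486 and 0.559, limma and edgeR). Ldha turned direction on log2(TPM + 1), log2(TPM + 0.1) and with the length offset (0.25, 0.26 and 0.16). The log2 length difference of Acat1 ran from -0.054 to 0.016 without 1 mouse and turned without control mouse TT-587. The number of correlated pairs was 1 and became 0 to 3 without 1 mouse. It was 3 without control mouse TT-587, and 0 without control mouse TT-584 or HFD+mTAC mouse TT-588, TT-590 or TT-591. Bdh1 with Acat1 turned positive without control mouse TT-587 (r = 0.38) and HFD+mTAC mouse TT-589 (r = 0.019), with a range of -0.31 to 0.38 without 1 mouse, as did Acat1 with Slc16a1 (-0.54 to 0.10) on log2 CPM (r = 0.34) and without control mouse TT-587 (r = 0.10). On CPM per kilobase, the log2 differences in level were 0.75 for Oxct1 over Acat1, 2.83 for Oxct1 over Bdh1, 2.42 for Oxct1 over Slc16a1, 2.08 for Acat1 over Bdh1, 1.67 for Acat1 over Slc16a1 and -0.41 for Bdh1 over Slc16a1. The log2 ratio of Bdh1 to Acat1 differed by -0.92 on TPM, against -0.67 in the counts. The causes of these changes were not tested. No paired analysis was possible because the groups share no replicate numbers.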
